A study of Mus musculus with 15 samples.

Results

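The cytosolic ribosomal protein genes of mouse anterior prostate were examined as a family on 15 arrays. Members were all genes whose deposited symbol begins with RPL, RPLP or RPS followed by a digit, or is RPSA, with the S6 kinases (RPS6K) left out, and the brightest probe stood for each gene. The rule found 71 genes of 28902 distinct gene names. They comprised 28 proteins of the small (40S) subunit, 35 of the large (60S) subunit and 7 paralogs (Rpl3l, Rpl7l1, Rpl22l1, Rpl36al, Rpl39l, Rps4l and Rps27l). The remaining match, Rps19bp1, encodes a protein that binds Rps19 and Sirt1 and is no part of the ribosome. The rule leaves out ribosomal proteins deposited under other names, such as Rack1, which is described separately.

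All 15 mice were heterozygous for a CE2 allele (CE2/+), an inducible Cre recombinase placed in a gene of the prostate epithelium. The control mice were intact (n = 3) and carried this allele alone. The mutant mice also had a floxed gene on both chromosomes (f/f) and were either intact (n = 6) or castrated (n = 6). Every animal was labelled untreated, and age and Cre induction were not given in the sources used here. Each array came from a different mouse. Values are log2 of the authors' processed intensities, and a log2 difference of 1 is a doubling. Since a probe's brightness also depends on its sequence, levels are compared between samples and not between genes.

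A cytosolic ribosome is built from ribosomal RNA and a fixed set of proteins, each needed in about equal number. The mRNAs of these proteins begin with a C followed by a run of pyrimidines (C or T), the terminal oligopyrimidine or TOP motif, through which mTOR complex 1 controls their translation. The series as a whole concerns Akt and mTOR signalling in prostate cancer, and Rps6 is the classic substrate of the S6 kinases downstream of mTOR. Arrays measure mRNA, so neither translation nor Rps6 phosphorylation was observed here.

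Some arrays stood apart. Secretory genes of the seminal vesicle (6 measured) averaged 12.25 and 12.56 in control replicates 3 and 2 and 12.06 and 12.63 in mutant intact replicates 2 and 3, against 7.16 to 9.97 on the other 11 arrays. Castrated replicates 1 and 5 correlated with each other over all tested genes (0.984 across genes, which are not independent) more than with the other 4 castrated arrays (0.959 to 0.971). Of the prostate epithelial markers Krt8, Krt18, Cdh1 and Foxa1 were above background on all 15 arrays, whereas Pbsn was above it on the 3 control arrays alone and Hoxb13 on 6 arrays. The markers of other cell types also differed between groups. Over all 16682 genes tested, 3042 rose and 4238 fell in mutant intact against control (limma, adjusted p under 0.05). In mutant castrated against control 3336 rose and 4111 fell. All 9 measured smooth muscle genes fell in both mutant groups, with array means of 11.74 to 11.93 in control, 8.54 to 10.50 in mutant intact and 8.45 to 9.80 in mutant castrated. Of 9 macrophage genes 8 rose in each mutant group, with array means of 8.60 to 8.89, 10.30 to 13.35 and 10.87 to 11.34. Of 10 lymphocyte genes 3 rose in mutant intact and 7 in mutant castrated, with array means of 7.38 to 7.40, 7.67 to 8.36 and 7.91 to 8.65. In whole tissue, fewer cells of a type and less RNA per cell cannot be told apart, and the part of these shifts in the results below was not tested.

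Of the 71 genes 65 were measured above background on at least 3 arrays and could be tested. The other 6 were Rpl6, Rpl17, Rps20, Rps23 and the paralog Rpl39l, whose single probes were above background on 0 of 15 arrays, and Rpl14, on 2 arrays. Among those tested, Rps18 was above background on 5 arrays and Rpl3l on 9. Other canonical ribosomal proteins, among them Rpl5, Rpl11, Rpl10, Rpl7 and Rps27, were not analysed here because no probe carried their symbols.

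The first comparison set mutant intact against control prostate. Ribosomal protein mRNAs were lower in the mutant. Of the 65 genes tested 47 fell and 0 rose (limma, adjusted p under 0.05 over 16682 genes), where 25.4% of all genes tested fell. The remaining 18 were not called. The median log2 fold change was -0.37, a 1.30-fold decrease, against -0.04 over all genes tested. The decreases were small. None of the called genes fell by 2-fold, and 12 fell by at least 1.5-fold. In 44 of the 65 genes all 6 mutant intact arrays lay below all 3 control arrays, which was so for 23.6% of all genes tested. Without Rps19bp1 the count was 46 of 64.

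**Figure D1:**
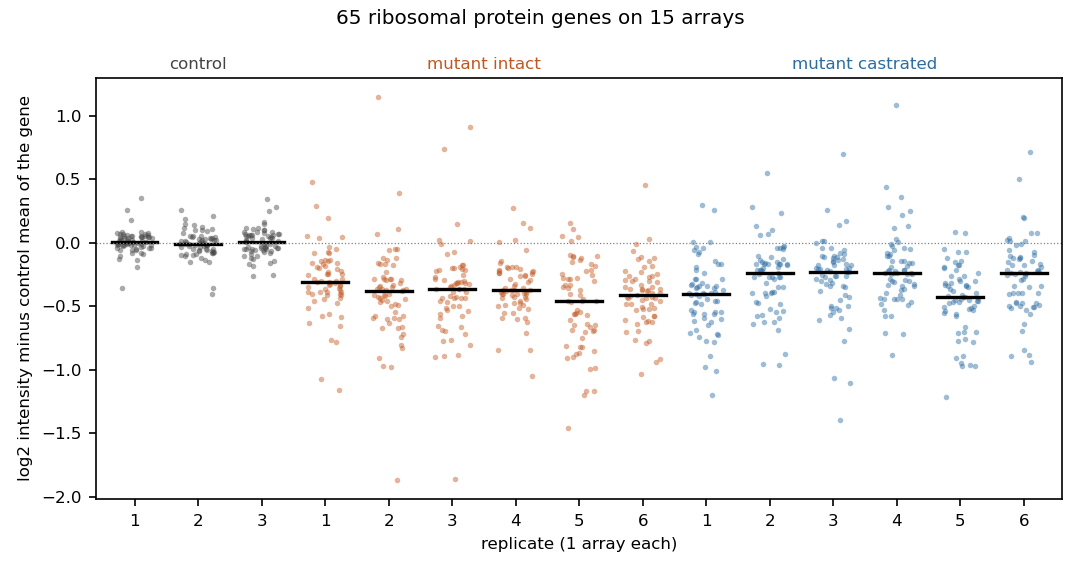
Log2 intensity of each of the 65 tested genes (points) minus that gene's mean over the 3 control arrays, for every array, with the median over genes as a black line. The medians of the 6 mutant intact arrays lie between -0.46 and -0.31 and those of the 6 mutant castrated arrays between -0.43 and -0.23. The 3 control arrays lie within 0.01 of 0, but the mean subtracted is their own, which holds them near 0.

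The decrease was present on every mutant array. The median difference from the control mean was -0.31 in mutant intact replicate 1, the smallest decrease, and -0.46 in replicate 5, with a mean of -0.38 ± 0.05 (SD, n = 6). Between 59 and 63 of the 65 genes lay below their control mean on each mutant intact array. By group mean 62 of the 65 did, where 55.1% of all genes tested did. Intensity was also summed over all genes tested, each by its brightest probe. The 65 members held 6.81% to 6.97% of this sum in control and 5.27% to 5.61% in mutant intact. Among the 50 brightest genes of an array, 14 or 15 were members in control and 9 or 10 in mutant intact.

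Both subunits took part. Of 26 tested small-subunit genes 18 fell (median -0.37), and of 32 large-subunit genes 27 fell (median -0.43). No gene of either subunit rose. Of the 6 tested paralogs 1 fell and 0 rose, with a median of -0.18. Whether the subunits or the paralogs differ from each other was not tested.

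Rpl4, a large-subunit protein with a long arm in the wall of the peptide exit tunnel, had the largest called decrease of a ribosomal protein. Its log2 intensity was 11.49, 11.54 and 11.53 on the control arrays, and 10.36 (lowest), 10.62 (median) and 10.89 (highest) in mutant intact. No mutant array reached the lowest control array. The log2 fold change was -0.89 (SE 0.12, limma adjusted p = 2.83e-05), a 1.86-fold decrease.

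Other proteins around the exit tunnel were also lower. Of Rpl4, Rpl17, Rpl19, Rpl26, Rpl31, Rpl35 and Rpl39, which lie in or near the tunnel, 6 were tested and all 6 fell, by -0.23 to -0.89. Their median was -0.45, against -0.43 over the 32 tested large-subunit genes, of which 27 fell. Whether the tunnel proteins differ from the rest of the subunit was not tested. Rpl19 measured 13.38, 13.29 and 13.39 in control and 12.54 (lowest), 12.74 (median) and 12.94 (highest) in mutant intact. The log2 difference was -0.62 with an SE of 0.11 (limma adjusted p = 0.000301). Rpl35 changed by -0.46 and Rpl39 by -0.28.

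In the small subunit the largest called decrease of a ribosomal protein described here was on the side where mRNA leaves. Rps26, which contacts mRNA in the exit channel and is mutated in some human families with Diamond-Blackfan anaemia, measured 15.30, 15.19 and 15.14 in control and 14.22 (lowest), 14.43 (median) and 14.58 (highest) in mutant intact. The groups did not overlap, and the log2 fold change was -0.81 (SE 0.11, limma adjusted p = 3.36e-05). Rps14, which also lies on the exit side, fell by 0.34 on the log2 scale. On the entry side, Rps2 (-0.36) and Rps3 (-0.37) did not pass the test (limma adjusted p = 0.0759 and 0.064), though their estimates were no smaller than that of Rps14. Whether the exit and entry sides differ was not tested. Rps15, in the head of the small subunit, fell from 14.16 ± 0.06 (SD, n = 3) to 13.51 ± 0.22 (SD, n = 6), a log2 fold change of -0.65.

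The ribosomal stalk, which recruits elongation factors, is formed by Rplp0, Rplp1 and Rplp2 at a base shared with Rpl12. Of these 4 genes 3 fell, where 27 of the 32 tested large-subunit genes fell. Rplp2 measured 15.37, 15.40 and 15.31 in control and 14.54 (lowest), 14.77 (median) and 14.92 (highest) in mutant intact. The log2 difference was -0.61 with an SE of 0.10 (limma adjusted p = 9.84e-05). Rpl12 fell by 0.66 on the log2 scale and Rplp0 by 0.43, each with the 6 mutant arrays below the 3 controls. Rplp1, the partner of Rplp2, was not called. It measured 15.65, 15.73 and 15.44 in control against 15.26 (lowest), 15.41 (median) and 15.71 (highest), and the groups overlapped (log2 fold change -0.16, 95% interval -0.38 to 0.07, limma adjusted p = 0.245).

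Rplp1 lies close to the top of the scale, as do Rps29 and Rpl41, which were picked out after their values were seen. The highest value of any probe on an array was 15.69 to 15.79 in control and 15.42 to 15.71 in mutant intact. Rps29 (-0.18) and Rpl41 (-0.10) were not called either. Other members as near to the top of the scale were called lower by their brightest probes, among them Rps12 (-0.34), Rpl37 (-0.29), Rpl38 (-0.25) and Rpl23 (-0.22). Dimmer probes of Rpl23 changed by -0.30 and -0.72 and that of Rps12 by -0.50, whereas that of Rpl38 changed by -0.10. How far the scanner or the authors' scaling compressed such bright probes was not tested. Of 40 members with a mean log2 intensity over 14, a value chosen after the data were seen, 33 fell (median -0.36), and of 25 dimmer members 14 fell (median -0.45). Of 147 other genes over 14, 63 fell and 42 rose (median -0.13).

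Rps6, the S6 kinase substrate, fell by a modest amount. It measured 14.47, 14.57 and 14.68 in control and 13.71 (lowest), 14.17 (median) and 14.37 (highest) in mutant intact. All 6 mutant arrays were below the controls, replicate 5 by the most, and the log2 fold change was -0.44 (SE 0.15, limma adjusted p = 0.0232). The call was lost in 3 of 28 other fits (adjusted p from 0.00717 to 0.312).

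Some members varied widely between animals. Rpl29, a large-subunit protein also known as a heparin-interacting protein, was called (-0.76, SE 0.22, limma adjusted p = 0.00967) although its groups overlapped, with 13.55, 12.79 and 13.25 in control and a highest mutant intact value of 12.82. A dimmer probe of Rpl29 changed by -1.41 and was not called. By brightest probes, Rps3a1 had the lowest point estimate of the family and was not called (-0.95, SE 0.43, limma adjusted p = 0.0853). It measured 9.95 and 9.96 in mutant intact replicates 2 and 3, the arrays with high seminal vesicle transcripts, and 11.06 to 11.87 in the other 4. It measured 12.08 and 11.70 in the controls with high seminal vesicle transcripts and 11.68 in control replicate 1. The part of these transcripts in the Rps3a1 values was not tested.

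Rpl32 (-0.59) and Rpl22 (-0.59), an RNA-binding protein needed for T cell development in mice, were also among the 12 largest called decreases. Rps19bp1 had the largest of all (-0.92, SE 0.11, limma adjusted p = 5.78e-06) and measured 9.49, 9.52 and 9.58 in control against 8.37 (lowest), 8.60 (median) and 8.92 (highest). The other 35 called genes fell by between -0.57 (Rpl7a) and -0.22 (Rpl23, whose dimmer probes fell by more), each by its brightest probe. The 18 genes that did not pass were Rps3a1, Rps3, Rps2, Rps29, Rps19, Rps15a, Rps18, Rpsa, Rpl13a, Rpl30, Rpl18, Rpl41, Rplp1 and the paralogs Rpl22l1, Rpl36al, Rpl7l1, Rpl3l and Rps4l. Of these, Rps18 (0.03), Rpl3l (0.29) and Rps4l (0.37) had point estimates above 0.

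**Figure D2:**
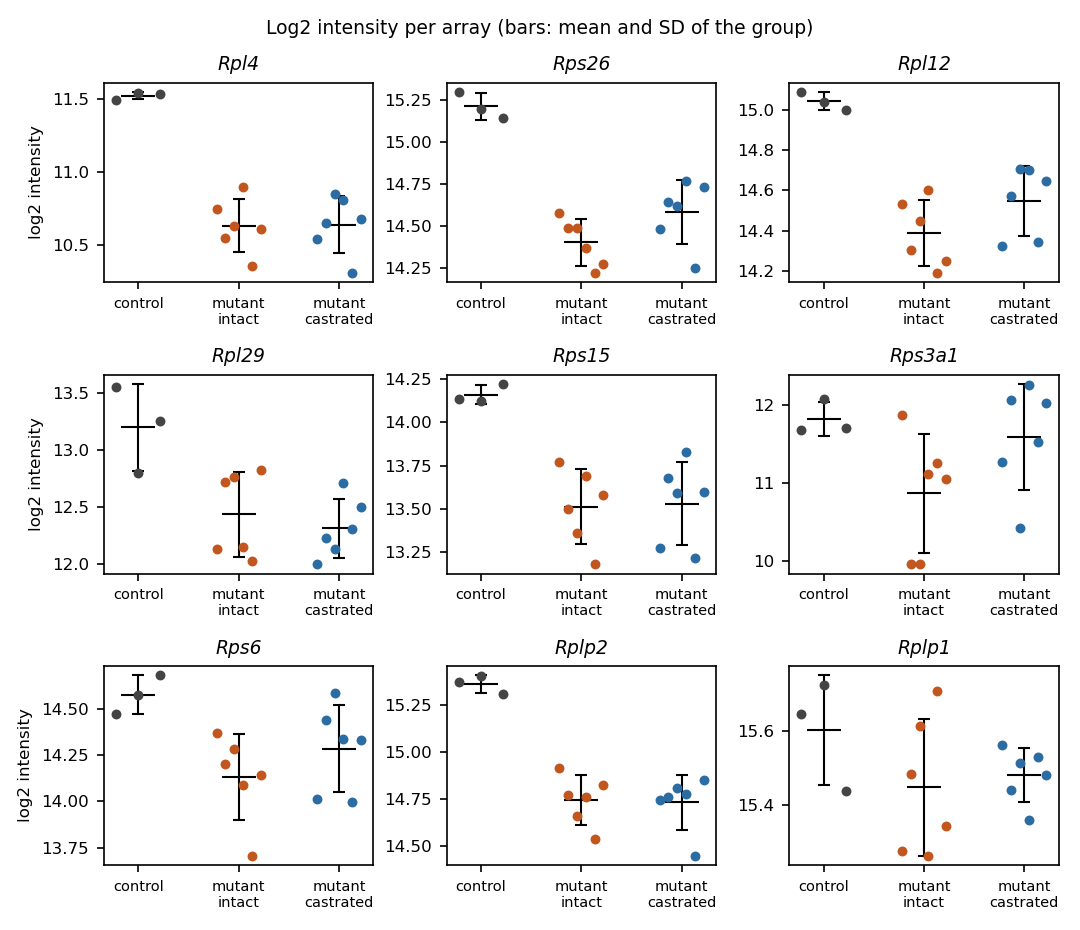
Log2 intensity per array (points) of 9 genes in control (n = 3), mutant intact (n = 6) and mutant castrated (n = 6), with group mean and SD; each panel has its own axis, which does not start at 0. Rpl4, Rps26, Rpl12 and Rplp2 show mutant arrays wholly below control, while Rplp1 overlaps and Rps3a1 ranges from 9.95 to 12.26 among mutant arrays.

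Different probes of a gene gave a check within the arrays. Of 17 members with several tested probes, 14 had the same sign on all of them in this comparison, 0 had probes called in opposite directions, and 0 had a probe called higher. All probes were called lower for 4 genes, and 9 had called and uncalled probes side by side. For Rps12 the second probe fell by more than the first (-0.50 against -0.34). For Rpl7l1, uncalled by its brightest probe (-0.15), the dimmer probe fell by 0.56 on the log2 scale. A dimmer probe each of Rpl30 (0.13), Rps19 (0.07) and Rpl27a (0.02) lay above 0, uncalled, where the brightest lay below. All probes had the same sign for 12 of the 17 in mutant castrated against control and for 10 in mutant castrated against mutant intact. Ribosomal protein genes have many near-identical processed pseudogenes, and binding of the probes to such transcripts was not tested.

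The start sites of these genes are shown because the TOP motif, by which translation of these mRNAs is controlled, lies there. RefSeq promoter windows (GRCm38.p6, 250 bases before to 50 after the annotated start) matched 55 of the 71 members. A tract of C followed by at least 5 pyrimidines, read on the gene's strand and beginning within 20 bases of the annotated start, was present in 36 of 55 members and in 9723 of 27025 genes with a window. Windows of 80 bases (60 before and 20 after the start) are given for 6 members that fell and for Rps19 and Rpl41, which were not called. Capitals mark the tract and any CCGGAAG, a letter run of ETS-type factors. Rpl41 has no such tract in its window.
Rpl4 (chr9:64173327-64173406, plus strand): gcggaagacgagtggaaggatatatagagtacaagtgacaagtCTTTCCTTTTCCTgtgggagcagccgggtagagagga
Rps26 (chr10:128626487-128626566, minus strand): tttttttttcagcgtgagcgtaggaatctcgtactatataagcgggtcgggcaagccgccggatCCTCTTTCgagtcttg
Rpl12 (chr2:32961652-32961731, plus strand): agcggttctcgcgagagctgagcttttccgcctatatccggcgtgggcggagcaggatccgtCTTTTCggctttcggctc
Rplp2 (chr7:141447591-141447670, plus strand): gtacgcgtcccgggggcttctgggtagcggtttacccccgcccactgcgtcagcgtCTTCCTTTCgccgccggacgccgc
Rps6 (chr4:86857348-86857427, minus strand): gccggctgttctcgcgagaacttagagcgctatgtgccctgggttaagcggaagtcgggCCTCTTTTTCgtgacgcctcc
Rpl35 (chr2:39005112-39005191, minus strand): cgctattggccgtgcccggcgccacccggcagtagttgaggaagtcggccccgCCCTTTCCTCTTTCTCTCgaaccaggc
Rps19 (chr7:24884853-24884932, plus strand): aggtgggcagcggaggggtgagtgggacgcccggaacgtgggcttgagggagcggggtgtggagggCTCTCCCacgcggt
Rpl41 (chr10:128549149-128549228, minus strand): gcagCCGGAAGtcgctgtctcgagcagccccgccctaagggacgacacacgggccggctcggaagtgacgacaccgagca

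Over the 300 bases and on both strands, CCGGAAG was found in 24 of 55 members (43.6%) against 9.93% of all genes with a window. The Sp1-type GGGCGG was found in 65.5% against 38.2% and the YY1-type AAGATGGC in 7.27% against 3.19%. The first and last of these runs can share up to 3 letters. Among the 37 members with a window that fell in mutant intact, 25 had the tract, 17 CCGGAAG, 22 GGGCGG and 1 AAGATGGC. Among the 14 tested members with a window that were not called, 7 had the tract, 5 CCGGAAG, 12 GGGCGG and 3 AAGATGGC. These shares are descriptions with no test, and a match is not a shown binding site.

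The second comparison asked what castration changed within the mutant genotype. No ribosomal protein gene was called. Of 65 genes 0 rose and 0 fell (limma, adjusted p under 0.05), and 0% of the 16682 genes tested were called. At an unadjusted p under 0.05, 7 members rose and 0 fell, with 10.2% of all genes tested rising at that level. The median log2 fold change of the family was 0.04, against 0.01 over all genes tested. The 95% intervals had a median width of 0.18 on either side, and for 59 of the 65 genes the interval lay within 0.5 of 0.

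**Figure D3:**
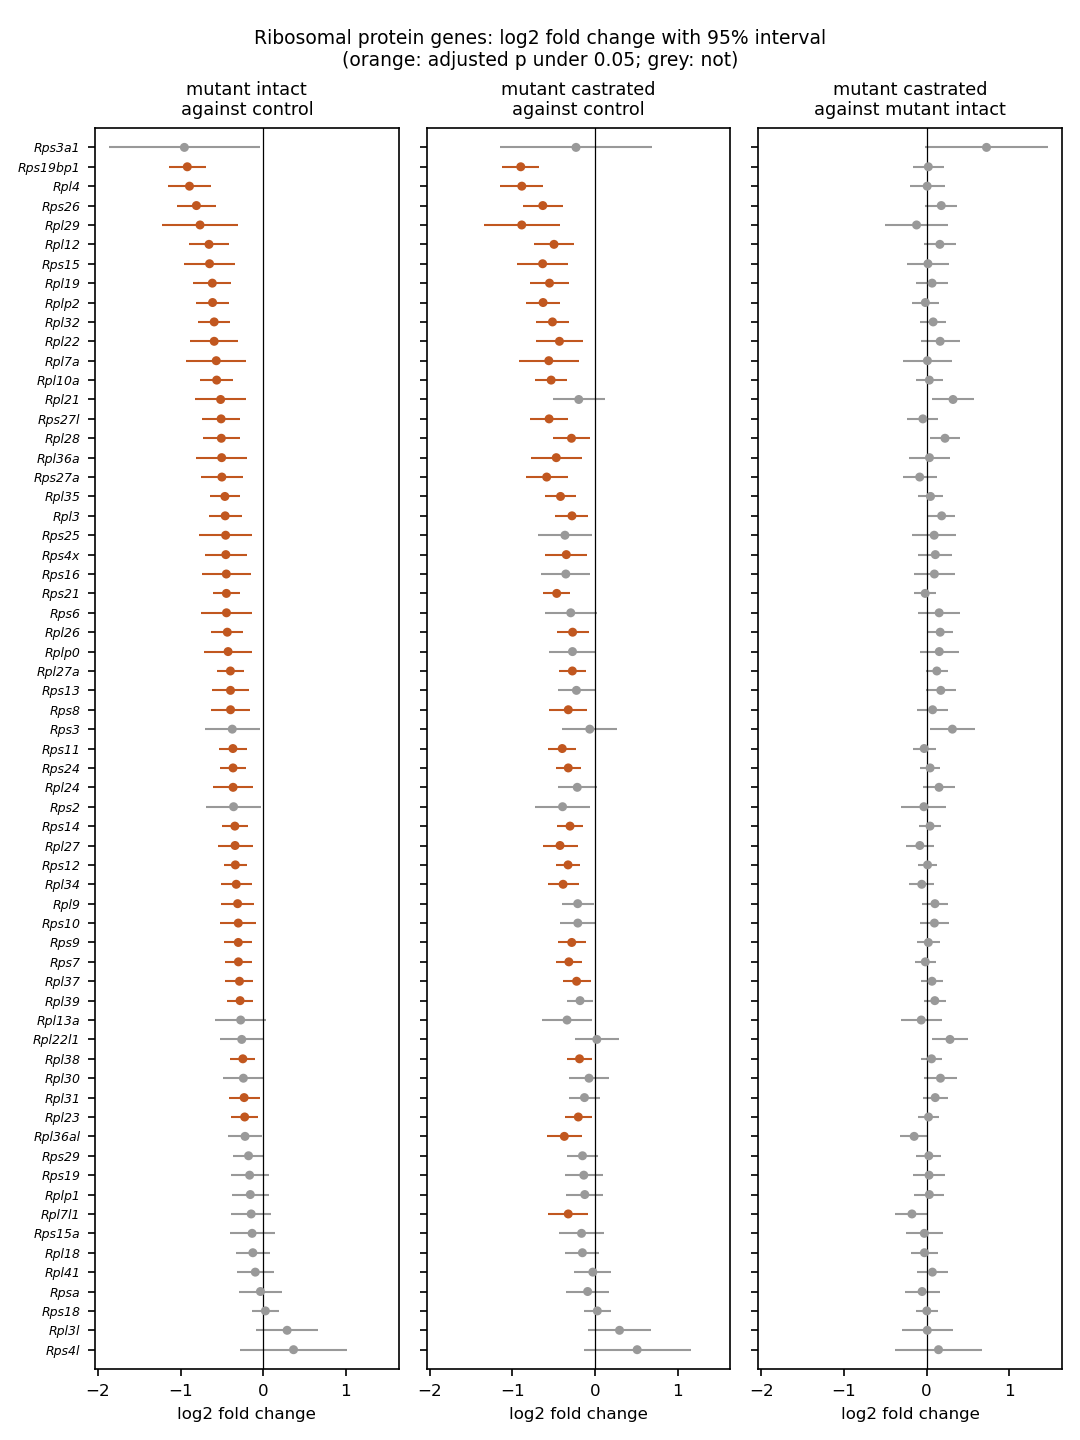
Log2 fold change with 95% interval of 63 of the 65 tested genes in the 3 comparisons, in 1 order for all panels; orange marks an adjusted p under 0.05. The left panel holds 45 called decreases, the middle 36 and the right 0; the left and middle panels share the 3 control arrays.

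Among the largest point estimates upward were those of Rps3a1, Rpl21 and Rps3. Rps3a1 measured 9.95 (lowest), 11.08 (median) and 11.87 (highest) in mutant intact and 10.43, 11.77 and 12.26 in mutant castrated. The groups overlapped, and the log2 fold change was 0.73 (95% interval -0.02 to 1.47, limma adjusted p = 0.332). Rpl21 differed by 0.32 and Rps3, a small-subunit protein at the mRNA entry that also acts in DNA repair, by 0.31. By brightest probes, the lowest estimates were in Rpl7l1 (-0.18), Rpl36al (-0.15), Rpl29 (-0.12) and Rps27a (-0.08), which is made as a fusion with ubiquitin. A dimmer probe of Rpl29 changed by -1.70 and was not called. For Rps6 the difference was 0.15 (95% interval -0.10 to 0.41), and for Rpl4 it was 0.01 (95% interval -0.20 to 0.22).

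Castrated replicates 1 and 5 were lower than the other 4 castrated arrays over the family. Their median differences from the control mean were -0.40 and -0.43, against -0.24, -0.23, -0.24 and -0.24 in replicates 2, 3, 4 and 6. They were the lowest castrated array for 19 and 26 of the 65 genes. The lymphocyte marker mean was also lowest on these arrays, 7.91 and 7.99 against 8.45 to 8.65, and the part of that difference was not tested. Without these 2 arrays, which were chosen after their values were seen, 5 members were called higher, including Rpl26, Rps13, Rps26 and Rps3, among 6.38% of all genes tested. With all 6 arrays the count was 0.

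The third comparison set mutant castrated against control, groups that differ in genotype and castration and that share the control arrays with the first comparison. Of 65 genes 37 fell and 0 rose, where 24.6% of all genes tested fell, and the median log2 fold change was -0.30, a 1.23-fold decrease. In 38 genes all 6 castrated arrays lay below all 3 controls, against 22.7% of all genes tested. Small-subunit genes fell in 13 of 26 cases and large-subunit genes in 20 of 32. The 65 members held 5.26% to 5.84% of the summed intensity of all genes tested in mutant castrated.

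Rpl29 (-0.88, SE 0.22, limma adjusted p = 0.00373) and Rpl4 (-0.88, SE 0.12, limma adjusted p = 2.94e-05) had large decreases, as did Rps19bp1 (-0.90). A dimmer probe of Rpl29 fell by more (-3.12) and was also called. Rpl4 measured 10.31 (lowest), 10.66 (median) and 10.85 (highest) in mutant castrated. All 6 arrays lay below the controls, and the mutant intact range was 10.36 to 10.89. Rps15 (-0.63), Rps26 (-0.63), Rplp2 (-0.63), Rps27a (-0.58), Rpl7a (-0.56), Rps27l (-0.55), Rpl19 (-0.55) and Rpl10a (-0.53) were also among the 12 largest. Rps6 was not called here, with a median of 14.33 and a highest value of 14.58 in mutant castrated (log2 fold change -0.29, 95% interval -0.61 to 0.02, limma adjusted p = 0.122). Rplp0 (-0.27) and Rplp1 (-0.12) were not called either.

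The paralogs gave mixed values. Rps27l, a p53 target in human cells, fell in both mutant groups, from 14.73 ± 0.02 (SD, n = 3) to 14.22 ± 0.19 (SD, n = 6) in mutant intact and 14.18 ± 0.13 (SD, n = 6) in mutant castrated. Rpl36al and Rpl7l1 were called in mutant castrated against control (-0.37 and -0.32) and not in mutant intact against control (-0.22 and -0.15), and the castration differences for both were not called. Rpl22l1, which Rpl22 protein represses in mice, was 8.09 ± 0.17 in control, 7.83 ± 0.19 in mutant intact and 8.11 ± 0.17 in mutant castrated, with no call in any comparison. Rpl3l, a muscle form, lay between 6.97 and 7.83 over the 15 arrays and was above background on 9 of them. Rps4l, deposited as RPS4Y2, ranged from 7.65 to 9.07 in mutant intact and was highest in replicates 2 and 3.

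The within-array difference between a paralog and its partner was compared for the 4 pairs in which both were tested (Rpl22l1 and Rpl22, Rpl36al and Rpl36a, Rpl3l and Rpl3, Rps4l and Rps4x). Of 12 tests (exact permutation test over arrays, two-sided) 3 reached p = 0.0238, the smallest that 3 against 6 arrays can give, and after adjustment over the 12 their p was 0.0952. A pass after adjustment was therefore hardly within reach against control, and the lack of one says little about these pairs. The largest shift was in Rps4l relative to Rps4x, 0.86 on the log2 scale between mutant castrated and control. Background was not subtracted to 0, so dim probes understate their own change.

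The members did not all move as a block within a group. Mutant intact replicate 5 was the lowest of its group for 34 of 65 genes and the highest for 11. On that array Rpl4 (10.36) and Rps6 (13.71) were the lowest of the 6, whereas Rps27l (14.50), Rpl36al (14.66), Rps27a (11.30), Rps19bp1 (8.92) and Rplp1 (15.71) were the highest. The median SD over members was 0.07 in control, 0.14 in mutant intact and 0.15 in mutant castrated.

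Genes that build or work with the ribosome were examined beside the family. Over all 16682 genes tested, 4238 fell and 3042 rose in mutant intact against control, and 4111 fell and 3336 rose in mutant castrated against control. Of 68 tested mitochondrial ribosomal protein genes 38 fell and 2 rose in mutant intact against control (median -0.31), and 34 fell and 4 rose in mutant castrated against control (median -0.27). Their largest called changes in mutant intact were in Mrps6 (-2.13), Mrps28 (-1.14), Mrps12 (-1.01) and Mrpl53 (-0.97), 3 of them proteins of the small mitochondrial subunit. Of 36 tested ribosome biogenesis genes 18 and 17 fell and 0 rose in those comparisons (medians -0.28 and -0.27). Among them were Polr1b (-1.13), a subunit of RNA polymerase I, Ubtf (-0.76), a factor of ribosomal DNA transcription, and Tsr1 (-0.98) and Nob1 (-0.87), which act in small-subunit maturation. None of these genes was called after castration.

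Of 14 tested translation genes whose mRNAs carry the TOP motif 7 fell and 0 rose in mutant intact against control, where 25.4% of all genes tested fell. The largest decreases were in the poly(A)-binding protein Pabpc1 (-1.03), Eif4b (-0.87), Eef1b2 (-0.73) and Eef1d (-0.62). In mutant castrated against control 4 of the 14 fell, where 24.6% of all genes tested fell, and 1 rose, Tpt1 (0.45). After castration none was called (limma, smallest adjusted p = 0.0893), and the median was 0.21. At an unadjusted p under 0.05, 8 were higher and 1 lower, with 10.2% of all genes tested higher at that level. Rack1, a scaffold on the small subunit, fell from 8.91 ± 0.08 (SD, n = 3) to 8.09 ± 0.21 (SD, n = 6) in mutant intact (-0.83). In mutant castrated it was 8.71 ± 0.32 (SD, n = 6) and was not called against control (-0.20, limma adjusted p = 0.356) or against mutant intact (0.63, limma adjusted p = 0.0825). Among 6 tested genes of the S6 kinase family, 1 rose and 1 fell in mutant intact, where 3042 of all 16682 genes tested rose and 4238 fell.

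**Figure D4:**
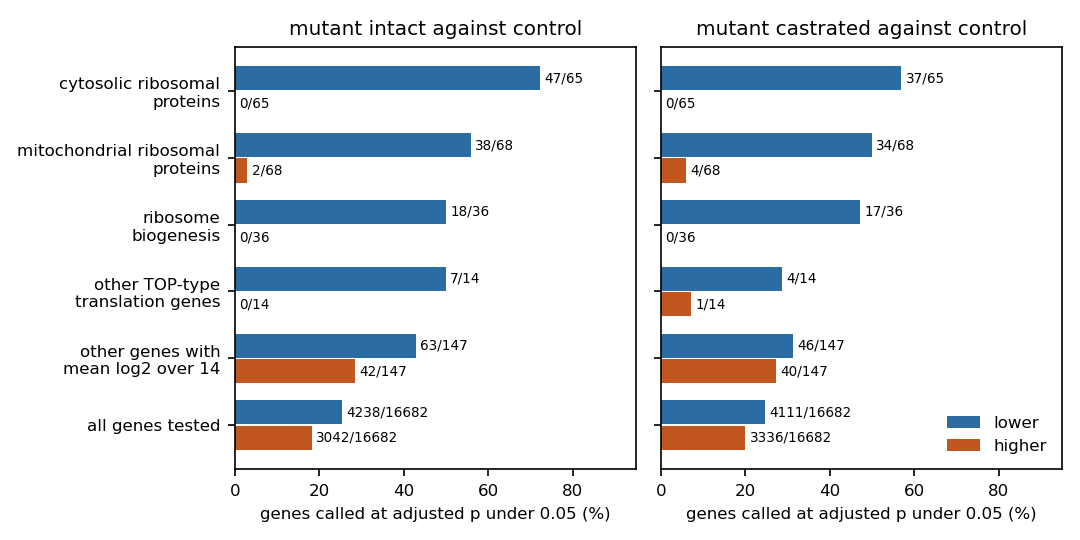
Percent of tested genes called lower (blue) or higher (orange) against control at an adjusted p under 0.05, for cytosolic ribosomal proteins, 3 related lists, other bright genes and all genes tested, with counts beside the bars. Cytosolic ribosomal proteins have 47 of 65 lower in mutant intact and 37 of 65 in mutant castrated; the panels share the 3 control arrays.

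Which arrays enter bears on the counts. Leaving out the 4 arrays with high seminal vesicle transcripts leaves 1 control array, assumed to vary like the other groups. The family's medians were then -0.38 in mutant intact and -0.33 in mutant castrated against control. Fewer members were called lower in both comparisons, and so were fewer of all genes tested. In mutant castrated the share of members called lower was then close to the share of all genes tested.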

How the data were processed

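Total RNA was hybridised to single-colour Illumina BeadArrays, 1 array per mouse. The values were the authors' processed intensities, deposited on a linear scale as a table of 45281 probes and 15 arrays. How the authors corrected and normalized them is not given in the sources used here. Array medians lay between 151.35 and 152.47. These lie below the background limits given below, so they do not show whether expressed probes had been scaled alike before deposit. The other deposited table, of raw signals, supplied each probe's gene symbol only. Its 15 signal columns carry chip and position names that match no animal, so they stayed out and chip was not used as a batch. The loci of the genotype, and some genes that the rules below name, are not reported here.

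Symbols were updated through a RefSeq gene table (GRCm38.p6). A probe was above background on an array if it exceeded the 95th percentile of 1466 olfactory and vomeronasal receptor probes there (intensities of 153.9 to 167.4), and was tested if so on at least 3 arrays, which kept 24474 probes and 16682 genes, each by its brightest probe. Of the members, 105 probes gave 71 genes (46 with 1 probe) and 88 probes were tested. The linear model, with a mean for each group and 12 residual degrees of freedom, was fitted to log2 intensities of the 15 arrays by limma 3.58.1 (R 4.3.3) with eBayes. Adjusted p-values are Benjamini-Hochberg values over the 16682 genes, and genes under 0.05 are called. The scripts were tested on simulated data. Exact permutation tests used SciPy 1.17.1. Precision is limited by how many arrays a group has.

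The members, lists and tests were chosen with earlier results of these data known. Named genes were the 12 largest falls and 10 largest rises among called members of a comparison (the 4 lowest and 4 highest estimates where none was called), a few members of known role, all paralog pairs, and up to 4 called genes of each other list. Alternatives are given in the closing section.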

Additional observations from a re-analysis of the deposited data

Results flagged for a closer look

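Outlying arrays were sought within the groups of 6 among the genes named, 64 groups of values in all, by setting the gap between the most extreme array and its nearest neighbour against the range of the group. Chance gives about 1 flag in 20 groups, and 3 were found. Rplp2 in mutant castrated replicate 5 was 14.45, below the 14.74 to 14.85 of the other 5 castrated arrays. Rpl39 on the same array was 14.91, where the others lay between 15.09 and 15.16. Rps4x in mutant intact replicate 6 was 14.51, and the next lowest mutant intact array was 14.85. Each of these values is lower than all 3 control arrays, and none of the calls for Rplp2 or Rps4x against control was lost without the array concerned.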

How the results depend on the processing

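No paired analysis was possible because the labels give no replicate numbers that the groups share. Over the 28 other fits of each comparison, 0 members were called higher against control and the family's median stayed below 0 there. The number lower ranged from 13 to 52 in mutant intact and from 10 to 41 in mutant castrated. Leaving out 1 array at a time gave 39 to 50 and 27 to 41, with medians of -0.41 to -0.36 and -0.33 to -0.27. Of all 16682 genes tested, 3552 to 4291 and 3453 to 4265 were lower in these fits. For castration 0 members were called, with medians of 0.04 to 0.07. Quantile normalization gave a median of -0.27 in mutant intact with 33 members lower, and 24 lower in mutant castrated against control. Of all 16682 genes tested, 4186 and 4077 were lower there. The lowest number of members lower against control came, in both mutant groups, without the 4 arrays with high seminal vesicle transcripts. That fit has 1 control array, and fewer of all genes tested were lower in it too. In mutant castrated the share of members lower was then close to the share of all genes tested. Without castrated replicates 1 and 5, an alternative added after the data were seen, 5 members were higher after castration. Of all genes tested 6.38% were higher in that fit. Cyclic loess moved the all-gene split in mutant intact from 3042 higher and 4238 lower to 3668 and 3474, and in mutant castrated against control from 3336 and 4111 to 3862 and 3469, while 44 and 35 members were lower and 0 higher.

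Estimates near 0 changed sign, none of them called on either side, and the cause was not tested. Under quantile normalization Rplp1 became 0.014 in mutant intact and 0.035 in mutant castrated against control, and Rpl39 became 0.038 in the latter. Without the seminal vesicle arrays Rpl29 (0.032) and Rpl4 (-0.013) turned after castration and Rpl22l1 (-0.16) in mutant castrated against control. Without the 3 castrated animals with the highest ID numbers, Rps27a (0.023), Rplp2 (0.026) and Rpl3l (-0.025) turned after castration and Rpl22l1 (-0.071) against control. For castration, Rplp2 also turned with array weights (0.022) and without castrated replicates 1 and 5 (0.054), and Rpl4 with cyclic loess (-0.021). With 1 array left out the castration estimates ranged from -0.0033 to 0.087 for Rplp1, -0.055 to 0.043 for Rplp2, -0.047 to 0.074 for Rpl4, -0.096 to 0.012 for Rps27l, -0.074 to 0.098 for Rpl3l and -0.031 to 0.14 for Rpl36a, and Rpl22l1 in mutant castrated against control from -0.052 to 0.11. The small number of control arrays, probes near the top of the scale and probes near background limit what these arrays can show.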
